A study of Homo sapiens with 6 samples.

Results

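Apolipoproteins are the protein parts of lipoprotein particles, and 10 of their genes were followed here: APOA1, APOA2, APOA4, APOA5, APOB, APOC1, APOC3, APOE, APOH and APOM. They were chosen by gene name among the 57773 genes of the deposited table, with no threshold on measured values but with earlier results of these data known, and 10 of 10 were found and passed the filter on low counts that left 22747 genes for testing. RNA was sequenced from 6 cultures of HepG2, a line established from a human hepatocellular carcinoma. All 6 cultures were of this line below passage 20, plated at 70% confluency. The 3 cultures of the TGFβ group received recombinant TGFβ1 at 5 ng/mL for 3 h, and the 3 cultures of the vehicle group received the solvent for the same 3 h. By the study's methods, growth medium was exchanged for MEM without serum before either was added. The cultures of each group carry the numbers 1 to 3, and cultures with the same number deviated together from their group means. The number was therefore treated as a pair in a second fit, with the number as a block. The main fit did not use the pairs. Numbers 1 and 2 of both groups shared a sequencing lane with their partner, while the cultures of number 3 ran on lanes 4 and 5. The latter also deviated together (r = 0.316 across genes). Deviations from the mean of 3 cultures depend on each other, so this value cannot separate number from lane. HepG2 stands for 1 tumor line in culture, and no other line, time or dose was measured.

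Liver cells make most of the apolipoproteins of plasma. APOB is the large scaffold on which triglyceride-rich particles are built, APOA1 and APOA2 are the main proteins of high density lipoprotein (HDL), and the smaller exchangeable members act as ligands for receptors or as activators and inhibitors of lipases. Their promoters are controlled by nuclear receptors of the liver such as HNF4A, while TGFβ, a cytokine, signals through receptor kinases to SMAD transcription factors. The comparison asked which RNAs differed after a short exposure to this ligand.

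The libraries held between 60815385 and 100099136 reads counted on genes. Levels are given as CPM, the count relative to the size of the library, after TMM scaling, which corrects that size for composition, and levels of different genes are compared only as RPKM, counts scaled for gene length and library size. Across all tested genes, edgeR's quasi-likelihood test called 937 at a false discovery rate (FDR) under 0.05. The treatment was visible in the 3 known targets used as a check, all of which rose: SKIL (log2 fold change 2.45), SMAD7 (1.72) and PMEPA1 (4.30). The 8 hepatocyte markers were present, with albumin (ALB) at place 7 among all genes by RPKM in vehicle cultures. Of 17 markers of stellate, endothelial, blood and gut cells, between 3 and 5 had no count in a given culture. Their summed level was 1585 to 1883 CPM with vehicle and 1457 to 1516 CPM with TGFβ, and 437 to 508 CPM in all cultures without LYZ. Most of the sum without LYZ was villin (VIL1), a gut cell marker, at 381 to 433 CPM. With the culture numbers as a block, PDGFRB and COL1A1 were higher with TGFβ, and LYZ and the hepatocyte markers TTR and FGB were lower. That fit called 11.8% of all tested genes. Whether these markers had a part in the results was not tested.

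No apolipoprotein RNA passed the test for a change within 3 h of TGFβ. At an FDR under 0.05, 0 of the 10 were higher and 0 were lower by edgeR's quasi-likelihood test, where 4.12% of all tested genes were called, 3.11% higher and 1.01% lower. At an unadjusted p under 0.05 there were also 0 of 10, against 13.7% of all tested genes. DESeq2 and limma-voom called 0 of 10 as well, against 1420 and 921 of all tested genes. The vehicle and TGFβ values overlapped for 10 of 10 members, while 18.6% of all tested genes had groups that did not overlap. In a set of 10 genes, counts of 0 do not set the members apart from these shares. The fitted log2 fold changes ran from -0.16 for APOM to 0.08 for APOC3, with 3 above and 7 below zero. Their median was -0.02, against -0.0054 over all tested genes, and the median of their absolute values was 0.07, against 0.14. All tested genes include ones with few reads and imprecise fold changes, so these medians are not matched for read count. The 95% intervals of all 10 lay within 1 log2 unit of zero on either side, and those of 7 lay within 0.5. With the culture numbers as a block, those of all 10 lay within 0.5. In bulk RNA, fewer cells making a transcript and less of it per cell cannot be told apart.

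**Figure D1:**
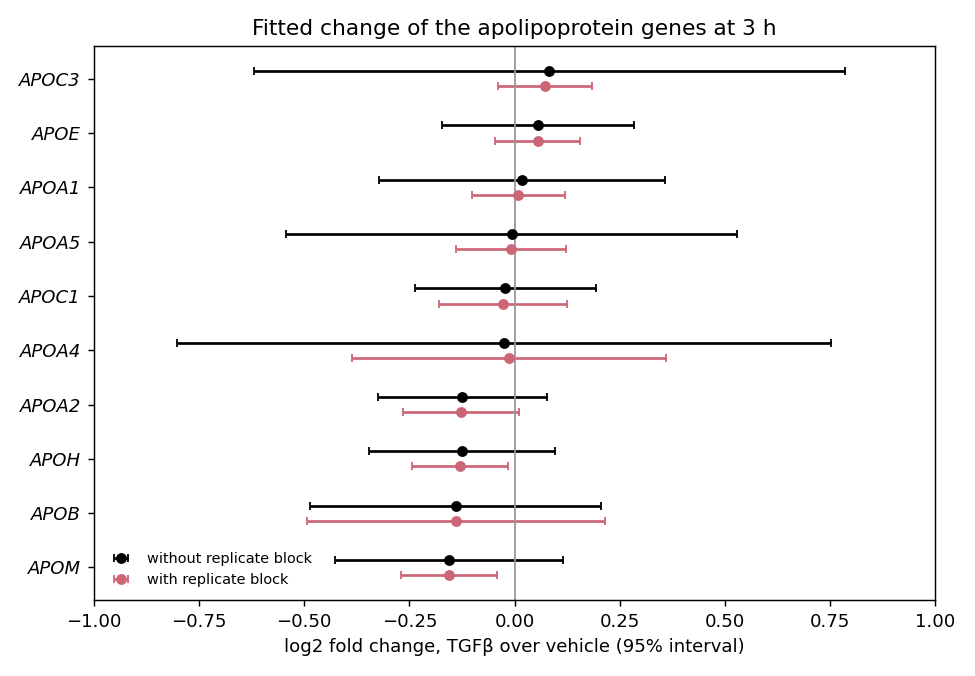
Log2 fold change of each apolipoprotein gene, TGFβ over vehicle (x axis), from edgeR's quasi-likelihood fit without (black) and with (red) the culture numbers as a block, with bars for the 95% interval (n = 3 cultures a group). Every black interval crosses zero, and with the block the intervals of APOH and APOM lie below it.

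The scaffold protein APOB and the proteins of HDL did not pass the test. APOB (ENSG00000084674, chr2:21224301-21266945, hg19, minus strand), the scaffold of very low and low density lipoprotein, stood at 7760, 10498 and 10906 CPM in vehicle cultures 1, 2 and 3, and at 9156, 10145 and 7162 CPM in TGFβ cultures 1, 2 and 3. The lowest value was that of TGFβ culture 3 and the highest that of vehicle culture 3, and the groups overlapped. The log2 fold change was -0.14 (SE 0.15, 95% interval -0.49 to 0.21), with an FDR of 0.806 in edgeR's quasi-likelihood test. Within culture numbers the log2 ratio of TGFβ to vehicle was 0.24, -0.05 and -0.61, so the direction differed between numbers. The block therefore left the interval of APOB nearly as wide, at -0.49 to 0.22.

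APOA1 (ENSG00000118137, chr11:116706467-116708666, minus strand), the main protein of HDL and the activator of cholesterol esterification by LCAT, held 2051, 1722 and 2324 CPM in vehicle cultures and 2121, 1621 and 2434 CPM in TGFβ cultures. Culture 2 was lowest and culture 3 highest in both groups. Its log2 fold change was 0.02 (SE 0.15, 95% interval -0.32 to 0.36, FDR 0.977 by edgeR's quasi-likelihood test), and with the block the interval narrowed to -0.10 to 0.12. The antisense gene APOA1-AS overlaps 1834 of the 2200 bases of APOA1. Because the strand setting of the counting is not given in the sources used here, reads of these genes cannot be told apart. APOA1-AS itself had a log2 fold change of 0.13 (FDR 0.821, edgeR).

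APOA2 (ENSG00000158874, chr1:161192082-161193421, minus strand), the second protein of HDL, stood at 1239, 1395 and 1272 CPM with vehicle and at 1114, 1145 and 1323 CPM with TGFβ. TGFβ cultures 1 and 2 lay below all vehicle cultures and TGFβ culture 3 lay between vehicle cultures 3 and 2. TGFβ over vehicle gave a log2 fold change of -0.12 (SE 0.09, 95% interval -0.33 to 0.08, FDR 0.665, edgeR). With the block the interval was -0.27 to 0.01. A neighboring gene, AL590714.1, overlaps 215 of its 1340 bases on the other strand.

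APOM (ENSG00000204444, chr6:31620193-31625987, plus strand), which carries sphingosine 1-phosphate on HDL, had 74.0, 63.8 and 56.5 CPM with vehicle and 67.3, 55.2 and 52.0 CPM with TGFβ. Each TGFβ culture was below the vehicle culture of the same number, with log2 ratios of -0.14, -0.21 and -0.12, yet the groups overlapped. Without the block the log2 fold change was -0.16 (SE 0.12, 95% interval -0.43 to 0.12, FDR 0.700), and with the block the interval was -0.27 to -0.04 with an unadjusted p of 0.0117 and an FDR of 0.0811, both in edgeR's quasi-likelihood fit. BAG6, on the other strand, overlaps 290 of the 5795 bases of APOM and had a log2 fold change of 0.03.

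APOH (ENSG00000091583, chr17:64208151-64252643, minus strand), also named beta-2-glycoprotein I, is a plasma protein that binds anionic phospholipids. Its levels were 1529, 1483 and 1666 CPM with vehicle and 1455, 1249 and 1585 CPM with TGFβ. As for APOM, each TGFβ culture was below its numbered partner, here with log2 ratios of -0.07, -0.25 and -0.07. The log2 fold change of -0.13 (SE 0.10, 95% interval -0.35 to 0.10) had an FDR of 0.704 without the block. With the block its interval was -0.24 to -0.02, with an unadjusted p of 0.0289 and an FDR of 0.149 by edgeR. APOH and APOM were the 2 members of 10 that were lower in all 3 numbers, a pattern held by 20.9% of all tested genes. With the block 0 of 10 members were called, against 11.8% of all tested genes (8.08% higher and 3.75% lower), and 2 of 10 had an unadjusted p under 0.05, against 23.6%.

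The members that act on lipases and receptors did not pass the test either. APOE (ENSG00000130203, chr19:45409011-45412650, plus strand), the ligand through which remnant particles reach their receptors on cells, stood at 1029, 848 and 921 CPM with vehicle and at 1083, 871 and 956 CPM with TGFβ. Each TGFβ value was slightly above that of the same number, by 0.07, 0.04 and 0.05 log2 units, and the groups overlapped widely. A log2 fold change of 0.06 was fitted (SE 0.10, 95% interval -0.17 to 0.28, FDR 0.890, edgeR), or -0.05 to 0.16 with the block.

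APOC3 (ENSG00000110245, chr11:116700422-116703788, plus strand), an inhibitor of lipoprotein lipase and of particle uptake, held 89.4, 41.1 and 75.5 CPM with vehicle and 96.3, 41.8 and 80.0 CPM with TGFβ. Here too every TGFβ value was above that of its number, by 0.11, 0.02 and 0.08 log2 units, but culture 2 stood far below the others in both groups. Its log2 fold change was 0.08 with a wide 95% interval of -0.62 to 0.78 (SE 0.31, FDR 0.950, edgeR), and with the block the interval was -0.04 to 0.18.

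APOC1 (ENSG00000130208, chr19:45417504-45422606, plus strand), which inhibits the lipid transfer protein CETP, stood between 158 and 175 CPM with vehicle and between 147 and 188 CPM with TGFβ. The highest and the lowest value were both from TGFβ cultures. Its log2 fold change was -0.02 (SE 0.10, 95% interval -0.24 to 0.19, FDR 0.957, edgeR), and the interval was -0.18 to 0.12 with the block.

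APOA5 (ENSG00000110243, chr11:116660083-116663136, minus strand), which raises the action of lipoprotein lipase on triglyceride, had 31.5, 18.1 and 30.7 CPM with vehicle and 32.4, 18.1 and 29.4 CPM with TGFβ. The values of the same number were nearly equal, and culture 2 was the lowest in both groups. The fit gave a log2 fold change of -0.01 (SE 0.24, 95% interval -0.54 to 0.53, FDR 0.993, edgeR), and -0.14 to 0.12 was the interval with the block.

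APOA4 (ENSG00000110244, chr11:116691419-116694022, minus strand), an apolipoprotein made mostly by the intestine, was the scarcest member, with 2.72, 1.21 and 2.70 CPM in vehicle cultures and 3.04, 1.40 and 2.02 CPM in TGFβ cultures. These values rest on 100 to 295 reads a culture, whereas the other members had at least 1454. The log2 fold change was -0.03 (SE 0.35, 95% interval -0.80 to 0.75, FDR 0.986, edgeR), the widest interval of the 10. With the block it was -0.39 to 0.36. Of the 4 gut cell markers examined, sucrase-isomaltase (SI) had no count in any culture. With vehicle, ALPI had a mean of 0.0519 CPM, FABP2 of 1.48 CPM and VIL1 of 407 CPM. An exact two-sided permutation test of the mean CPM gave no member a p below 0.3, where 3 cultures against 3 cannot give less than 0.1. This test did not use the pairs.

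**Figure D2:**
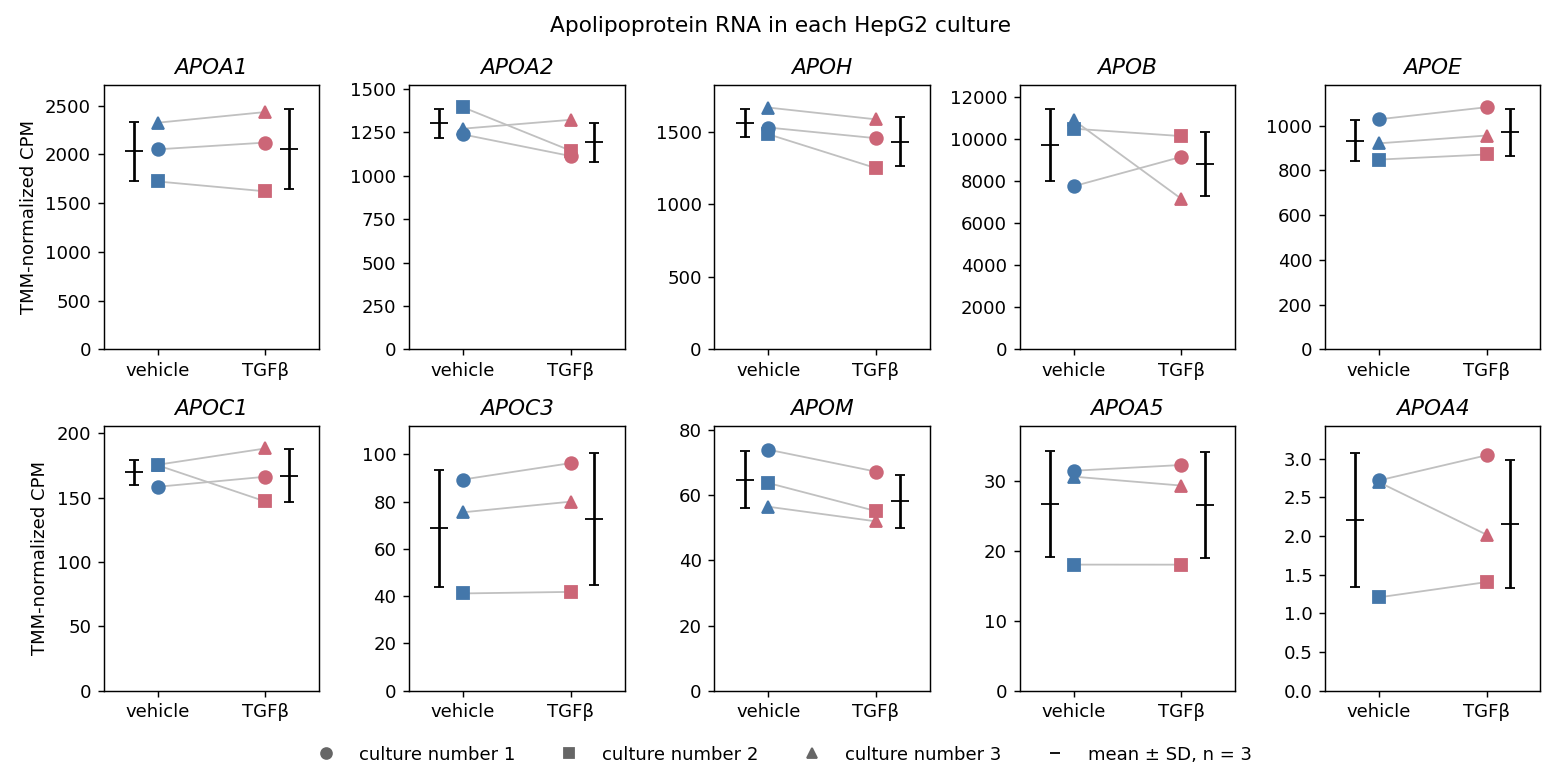
TMM-normalized CPM (y axes, from 0, each gene on its own scale) of the 10 apolipoprotein genes in 3 vehicle (blue) and 3 TGFβ (red) cultures of HepG2, with grey lines joining cultures of the same number and black bars for mean ± SD (n = 3). The groups overlap in every panel, and culture 2 is the lowest in both groups for APOA1, APOA4, APOA5, APOC3, APOE and APOH.

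Per length, the members spanned from the most abundant RNAs of the cell to a scarce one. In vehicle cultures the mean RPKM was 1178 for APOA1 (SD 152), 1140 for APOA2 (SD 99.0) and 967 for APOH (SD 45.9), at places 27, 28 and 30 among all genes. APOB followed with 543 (SD 100.1), APOE with 352 (SD 28.3) and APOC1 with 114 (SD 8.11), at places 51, 85 and 252. Then came APOC3 with 65.2 (SD 22.5), APOM with 32.3 (SD 4.33), APOA5 with 11.4 (SD 3.00) and APOA4 with 1.23 (SD 0.465), each from 3 cultures. The mean of APOA1 was 954 times that of APOA4. The order of the 10 was the same in the TGFβ cultures, where the mean RPKM was 1159 for APOA1 and 1.18 for APOA4. Neighbors in the order had separate ranges over the cultures, except APOA1 and APOA2, which overlapped in both groups, and APOB and APOE, which overlapped with TGFβ. By reads rather than per length, APOB led: the 10 genes took 1.37% to 1.76% of all counts of a culture, and APOB alone made up 51.9% to 66.3% of that share.

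**Figure D3:**
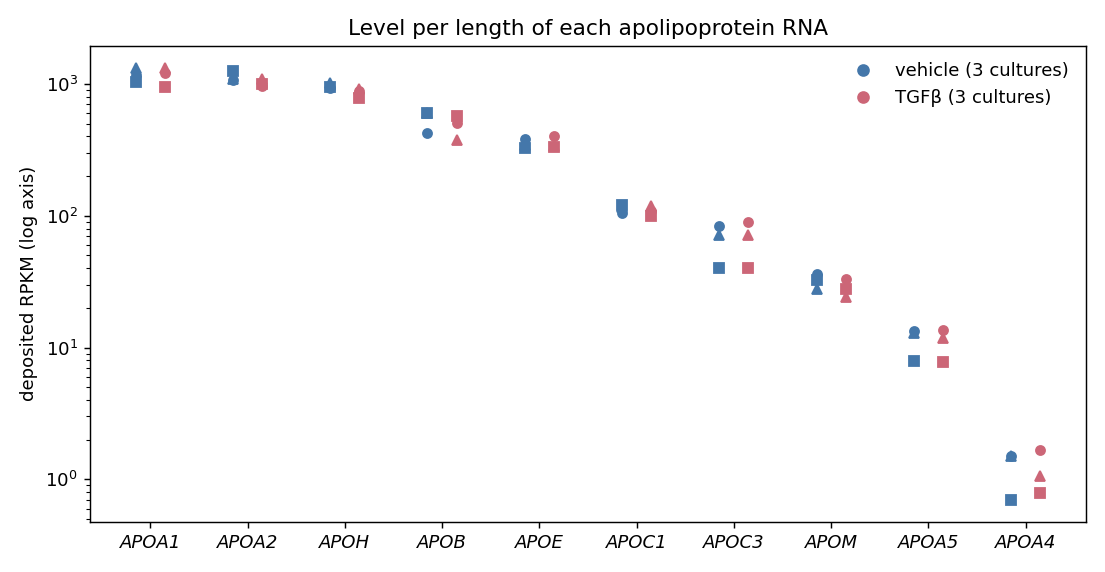
Deposited RPKM (y axis, log scale) of the 10 apolipoprotein genes in vehicle (blue) and TGFβ (red) cultures, ordered by the vehicle mean, with circles, squares and triangles for culture numbers 1, 2 and 3. The vehicle means fall from 1178 for APOA1 to 1.23 for APOA4, in the same order in both groups.

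Several members differed between culture numbers. These differences were examined after the values had been seen, with an edgeR quasi-likelihood test of the number term in the fit with the block. At an FDR under 0.05 the number term was called for 6 of 10 members, against 9.60% of all tested genes. These were APOC3 (FDR 7.03e-05), APOA5 (0.000416), APOA1 (0.00283), APOM (0.0118), APOA4 (0.0182) and APOE (0.0217). APOH (0.0611), APOC1 (0.277), APOA2 (0.389) and APOB (0.524) were not called. The share of 9.60% includes genes with few reads, so it is not matched to the members in read count.

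All 4 members that lie side by side on chromosome 11 (APOA5, APOA4, APOC3 and APOA1) had their lowest value in culture 2 of both groups. The highest culture of a group exceeded the lowest 2.17-fold for APOC3 with vehicle and 2.30-fold with TGFβ, 2.25-fold and 2.17-fold for APOA4, 1.74-fold and 1.79-fold for APOA5, and 1.35-fold and 1.50-fold for APOA1. The 2 members on chromosome 19 differed less. For APOE the same ratio was 1.21 and 1.24, also with culture 2 lowest in both groups, and for APOC1 it was 1.11 and 1.28 with different cultures lowest. APOM went another way, with culture 1 highest and culture 3 lowest in both groups (1.31-fold and 1.29-fold). APOB varied 1.41-fold and 1.42-fold, but its order of cultures was not the same in the groups. Culture 2 was thus lowest in both groups for 6 of 10 members, against 15.4% of all tested genes, and some number was lowest in both groups for 8 of 10, against 51.0%. These shares too are not matched for read count. Culture 2 was also lowest in both groups for all 8 hepatocyte markers, so the pattern was not particular to apolipoproteins. Their number term had an FDR from 0.00183 (AHSG) to 0.0443 (ALB) in the same edgeR test, except HNF4A, which was not called (0.143). The members share 6 libraries and 4 of them share 1 locus, so they are not independent counts of a pattern. For numbers 1 and 2, number and lane cannot be told apart. The cultures of number 3, in which APOM was lowest in both groups, ran on different lanes. That place is relative to numbers 1 and 2, so it does not separate number from lane either.

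**Figure D4:**
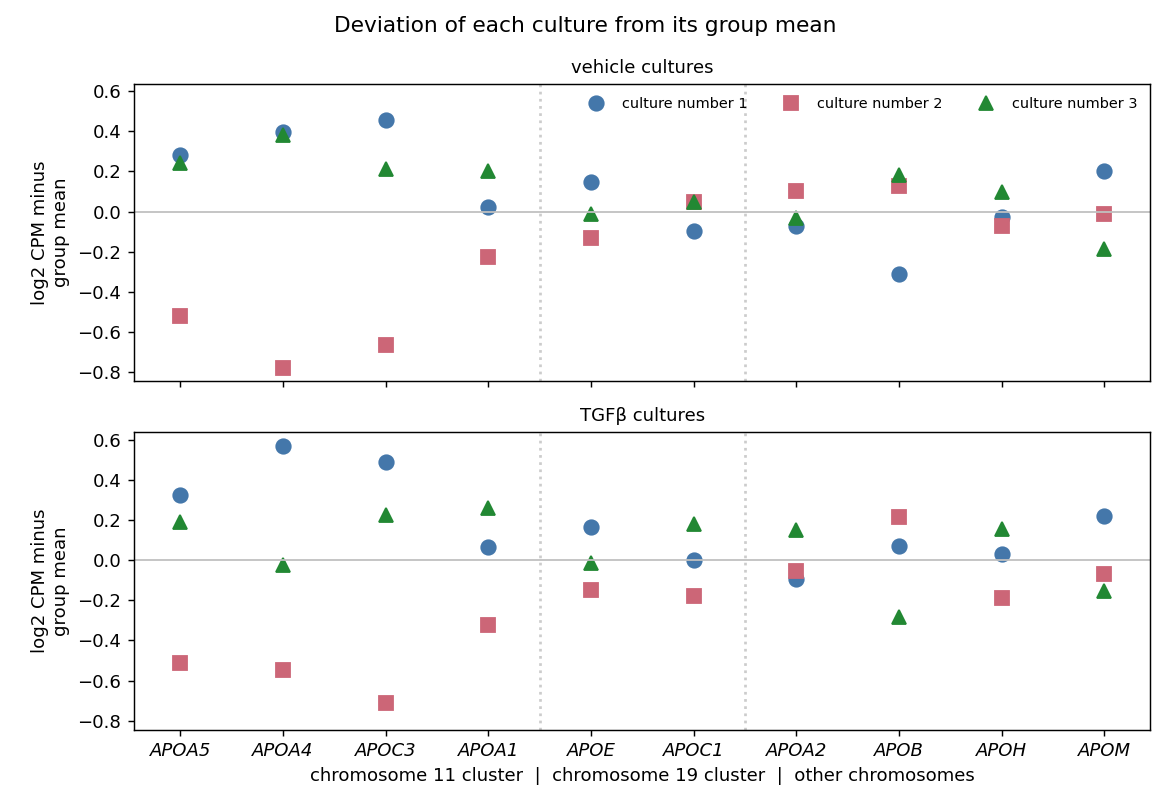
Deviation of each culture's log2 CPM from its group mean (y axis) for the 10 apolipoprotein genes, in vehicle (top) and TGFβ (bottom) cultures, with symbols for the culture number and dotted lines between genes of the chromosome 11 cluster, the chromosome 19 cluster and other chromosomes. Culture 2 (red squares) lies below the others for the 4 genes of the chromosome 11 cluster in both groups.

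Outside the members, CLU, an apolipoprotein of HDL also called clusterin, had a profile of the same kind, with 167, 119 and 213 CPM with vehicle and 159, 107 and 215 CPM with TGFβ (number term FDR 0.000146, edgeR). APOA1-AS, which overlaps APOA1, had 423, 265 and 341 CPM with vehicle and 436, 332 and 361 CPM with TGFβ, again with culture 2 lowest. These 2 genes were picked after their values had been seen. The genes nearest to the mean profile of the members, by Euclidean distance of centered log2 CPM over the 6 cultures, were RP4-583P15.15 (distance 0.0388), TMEM160 (0.0659), DPP4 (0.0678), GLUD1 (0.0887) and MPC2 (0.0938). The median distance of all other tested genes was 0.630. The mean profile of the members lay at 0.12, -0.19 and 0.14 log2 units in vehicle cultures 1, 2 and 3, and at 0.16, -0.27 and 0.04 in the TGFβ cultures.

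The start-site windows of the members are shown for genes whose RNA moved together over the culture numbers and for APOM, which moved another way. Windows of 300 bases, from 250 before to 50 after the start, were given for 7 of the 10 members (RefSeq, GRCh38.p14), and each was placed on GRCh37 by an exact match of its sequence. APOA5 lies at chr11:116663087-116663386 (minus strand), APOA4 at chr11:116693971-116694270 (minus strand) and APOM at chr6:31623421-31623720 (plus strand), which is inside the span deposited for that gene. Capitals mark every match to the 4 motifs searched. The SMAD element was searched as CAGAC. The AP-1 element was searched as TGANTCA. The nuclear receptor element was searched as AGGTCA. The TATA box was searched as TATAAA. Both strands were searched, and a match on the other strand is printed as its reverse complement, so GTCTG stands for a SMAD element there.
APOA5: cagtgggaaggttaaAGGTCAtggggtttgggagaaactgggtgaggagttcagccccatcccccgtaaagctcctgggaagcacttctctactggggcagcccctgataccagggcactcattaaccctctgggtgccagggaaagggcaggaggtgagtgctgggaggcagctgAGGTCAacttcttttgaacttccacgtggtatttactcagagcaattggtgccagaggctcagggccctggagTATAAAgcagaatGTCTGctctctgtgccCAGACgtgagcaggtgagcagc
APOA4: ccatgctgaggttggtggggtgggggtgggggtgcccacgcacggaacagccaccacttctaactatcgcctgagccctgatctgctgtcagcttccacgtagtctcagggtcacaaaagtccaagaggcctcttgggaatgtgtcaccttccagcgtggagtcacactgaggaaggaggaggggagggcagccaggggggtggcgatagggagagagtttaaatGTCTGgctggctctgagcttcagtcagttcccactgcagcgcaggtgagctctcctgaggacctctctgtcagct
APOM: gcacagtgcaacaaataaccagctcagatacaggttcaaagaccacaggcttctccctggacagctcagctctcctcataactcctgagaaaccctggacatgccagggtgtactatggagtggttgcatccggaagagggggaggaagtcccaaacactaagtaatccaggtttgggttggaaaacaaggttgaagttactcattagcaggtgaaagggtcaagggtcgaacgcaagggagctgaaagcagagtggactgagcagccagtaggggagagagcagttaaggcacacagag
In the APOA5 window shown, AGGTCA began 235 and 74 bases before the start, TATAAA began 1 base before it, and SMAD elements began at bases 13 and 29 after it on opposite strands. The APOA4 window held 1 SMAD element, 25 bases before the start, and the APOM window held none of the 4 motifs. A second APOA5 window (chr11:116662546-116662845), not shown, held a SMAD element, an AP-1 element and AGGTCA, which began 192, 166 and 156 bases before its start. The APOH window held a SMAD element 7 bases before the start and an AP-1 element at base 24 after it. Of the 3 APOE windows, 1 held SMAD elements 222 and 18 bases before the start, 1 held a SMAD element 243 bases before it and 1 held none of the motifs. SMAD elements also lay 217 bases before the start of APOC1, and 37 bases before and 6 after that of APOA2. Of 35116 windows of this length for all genes, 45.3% held the SMAD element, 7.71% the AP-1 element, 13.8% the nuclear receptor element and 11.5% the TATA box. These motifs were chosen with the values of the members known, and a match describes letters only.

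A list of 23 further genes held other apolipoproteins, proteins carried on the same particles, and genes related to these by name only. Of the 19 tested, 0 were higher and 0 were lower at an FDR under 0.05, where 4.12% of all tested genes were called. Their median log2 fold change was -0.04. At a low level or no reads, APOD, APOL5, LPA and SAA1 did not pass the filter. APOC2, the cofactor of lipoprotein lipase, had a log2 fold change of 0.01 (95% interval -0.22 to 0.23). Its neighbors APOC4 (0.0066) and the read-through gene APOC4-APOC2 (0.0065) hold nearly the same reads as APOC2, so the 3 are 1 measurement. APOF, which inhibits CETP, stood at -0.19, and CLU at -0.05. The APOL family, which includes the trypanolytic factor APOL1 (0.05), gave -0.04 for APOL2, 0.19 for APOL3, -0.08 for APOL4 and 0.37 for APOL6. APOLD1 (-0.04), APOO (-0.04), APOOL (-0.04) and LPAL2 (-0.06) were close to zero. The HDL-bound paraoxonases gave -0.05 for PON1, 0.05 for PON2 and 0.04 for PON3. Of the serum amyloid A genes, SAA2 stood at 0.16 and SAA4 at -0.26. With the block APOL6 was called higher (FDR 0.000904; 31.7 against 40.8 CPM) and SAA4 lower (FDR 0.0124; 81.0 against 67.6 CPM), which made 2 of 19, against 11.8% of all tested genes with the block.

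Assembly and secretion genes did not pass the test: 0 of 27 were called, against 4.12% of all tested genes. Their median log2 fold change was 0.03. MTTP, which loads lipid onto APOB, had levels of 71.3, 63.3 and 74.0 CPM with vehicle and 64.5, 46.9 and 56.8 CPM with TGFβ. One TGFβ culture lay within the vehicle range. The fit gave a log2 fold change of -0.31 (SE 0.11, FDR 0.236), and with the block MTTP was the only one of the 27 to be called (FDR 0.00586, edgeR). The block fit called 11.8% of all tested genes. Of receptors and their regulators, 0 of 15 tested genes were called, against the same 4.12% without the block, with a median of 0.03. With the block SCARB1, the HDL receptor, was higher (log2 fold change 0.19, FDR 0.0281) and LRP8, an APOE receptor, was lower (-0.28, FDR 0.0267). This made 2 of 15, against the same 11.8% with the block. MTTP, SCARB1 and LRP8 were named after their values had been seen.

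Of 11 tested genes for lipases, lipid transfer and cholesterol efflux, 1 rose and 0 fell, against 3.11% and 1.01% of all tested genes. Their median was -0.03. ANGPTL4, an inhibitor of lipoprotein lipase, stood at 1.19, 0.990 and 1.17 CPM with vehicle and at 3.04, 2.25 and 2.78 CPM with TGFβ, without overlap. Its log2 fold change was 1.27 (SE 0.19, FDR 0.00462, edgeR). Lipoprotein lipase itself (LPL) had no count in any culture, and LIPC, the hepatic lipase, stood at -0.01. With the block, LCAT was also higher (log2 fold change 0.26, FDR 0.0114) and LIPG, the endothelial lipase, lower (-0.67, FDR 0.0250), both named after their values had been seen. Together with ANGPTL4 this made 3 of 11, against 11.8% of all tested genes with the block.

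Of the factors known to act on apolipoprotein promoters, 8 passed the test. Of 46 tested, 5 rose and 3 fell at an FDR under 0.05, where 3.11% of all tested genes were higher and 1.01% lower, with a median log2 fold change of 0.03. JUNB, a subunit of AP-1, rose from 7.17 to 8.49 CPM with vehicle to 89.6 to 111 CPM with TGFβ (log2 fold change 3.66, SE 0.11, FDR 6.29e-07, edgeR). SMAD3, which carries the TGFβ signal itself, rose by 0.90 (FDR 0.000888), the thyroid hormone receptor THRA by 0.66 and the heme receptor NR1D1, a repressor, by 0.56. The coactivators of nuclear receptors PPARGC1A and PPARGC1B fell, with log2 fold changes of -0.75 (FDR 0.00331) and -1.54 (FDR 0.00274). JUN (0.43) and NR2F1 (-0.40), named to complete the count, were also called. HNF4A stood at 350 to 373 CPM with vehicle and at 331 to 397 CPM with TGFβ, a log2 fold change of 0.02 (SE 0.08, FDR 0.960). With the block, 15 of the 46 were called higher and 13 lower, against 8.08% and 3.75% of all tested genes. This list, like the others, was written with earlier results of these data known. Of the 18 tested genes listed for the regions of the chromosome 11 and 19 clusters, 1 was called, against 4.12% of all tested genes. This was BCL3, a partner of NF-kappa B on chromosome 19, which rose from 8.72 to 11.7 CPM with vehicle to 23.1 to 29.1 CPM with TGFβ (log2 fold change 1.28, FDR 0.000593). The median of these 18 was 0.15, and 4 were higher and 0 lower with the block, against 8.08% and 3.75% of all tested genes. Among the 18, APOC2 and APOC4 hold nearly the same reads and were counted separately.

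**Figure D5:**
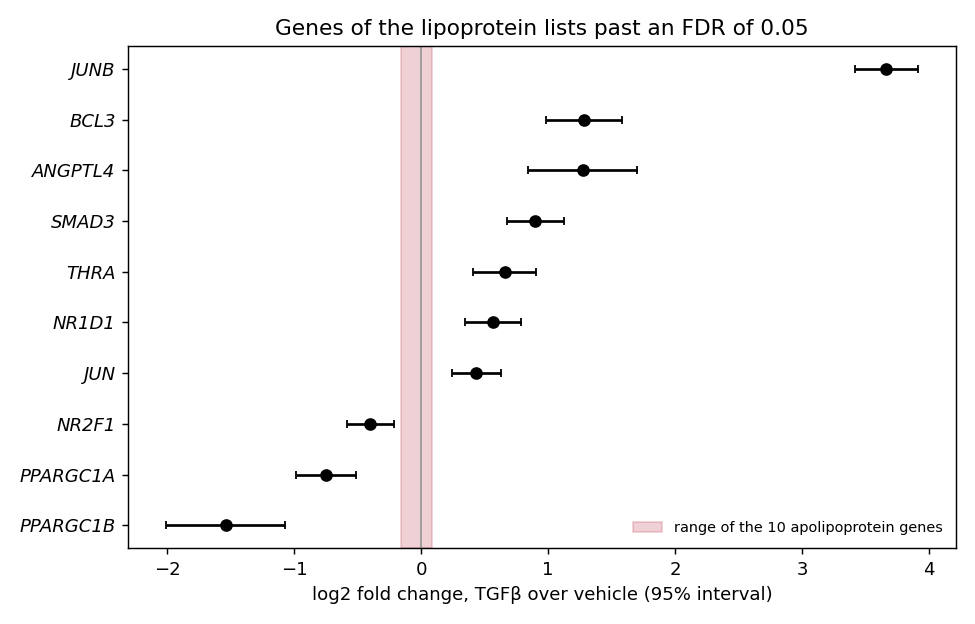
Log2 fold change, TGFβ over vehicle (x axis), with 95% intervals (n = 3 cultures a group), of the 10 genes past an FDR of 0.05 among the lists of lipoprotein genes, promoter factors and cluster genes, with the range of the 10 apolipoprotein genes shaded. The shaded range runs from -0.16 to 0.08, and the estimates run from -1.54 for PPARGC1B to 3.66 for JUNB. The genes were picked for passing the FDR that no member passed, so their distance from the range follows from that choice.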

How the data were processed

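RNA of 3 vehicle and 3 TGFβ cultures was sequenced as paired 51-base reads (TruSeq v2, HiSeq). The authors aligned reads to hg19 (TopHat2 2.0.6, HTSeq, per the labels) with MAPRseq and deposited raw counts per gene, which are not normalized. The authors also deposited RPKM, which divides each count by a gene length and a library total, and that length, called coding length. Annotation release, strand setting and the rule for overlapping genes: not given in the sources used here. Groups and culture numbers came from the sample labels. The study's methods call the cultures biological replicates, and no source says how they were separated, so p-values measure the spread between these samples.

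Counts were fitted with edgeR 4.0.16 (limma 3.58.1, R 4.3.3) after TMM scaling and filterByExpr, with the robust quasi-likelihood test and no replicate block, and p-values were adjusted over 22747 genes (Benjamini-Hochberg). Standard errors follow from F. Log2 CPM used a prior count of 2. Totals of 60815385 to 100099136 counts a library set the precision. Replicates differed beyond counting noise (chi-square per gene 21.4 to 46.3). Deviations from group means correlated across genes at 0.366, 0.227 and 0.316 for the same culture number and at most 0.0101 otherwise. The number was therefore treated as a pair in a second fit, with it as a block. The main fit and the permutation test did not use the pairs. Intervals from the second fit are given for the members, and its calls where they change a call or a count. The steps were tested on simulated data.

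The members and gene lists were chosen with earlier results of these data known. All members were named, with the genes past an FDR of 0.05 in each list (up to 6, smallest p first), every tested further apolipoprotein and the 5 nearest profiles. The culture-number test and the promoter motifs were chosen after seeing the values. Alternatives were limma-voom, DESeq2 1.42.0, its size factors inside edgeR, scaling by total count, the table unfiltered or with a minimum of 10 counts per library, the replicate block, and leaving out each culture. For the order of levels they were other pseudocounts, an RPKM minimum and CPM per length. Positions were read on GRCh37 and strands from GENCODE. Some genes of the lists are not reported here and were left out of the lists' counts.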

Additional observations from a re-analysis of the deposited data

How the results depend on the processing

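0 of the 10 apolipoprotein genes were called under any of 13 alternatives, and the smallest FDR among them was 0.0811 (APOM with the replicate block). APOA2, APOB, APOH and APOM kept a negative log2 fold change under all 13, but its size moved by over 1.5 times with 1 culture left out: from -0.21 to -0.077 for APOA2, from -0.29 to -0.018 for APOB, from -0.21 to -0.047 for APOH and from -0.28 to -0.058 for APOM. The fits with 1 culture left out had no block, so its number then stood in 1 group only. The sign of the others changed in at least 1 fit without the block. Within culture numbers, APOC3 and APOE were higher with TGFβ in all 3, with estimates of 0.07 and 0.06 in the fit with the block. The rest of these differed in direction between numbers. APOA1 moved to -0.022 with total-count scaling and to -0.00077 without a filter, and limma-voom gave 0.024 for APOA4 and 0.0047 for APOA5. Leaving out 1 culture at a time, the log2 fold change ran from -0.13 to 0.15 for APOA1, from -0.37 to 0.20 for APOA4, from -0.23 to 0.20 for APOA5, from -0.12 to 0.052 for APOC1, from -0.19 to 0.35 for APOC3 and from -0.036 to 0.12 for APOE. The cause was not tested.

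With the numbers as a replicate block, 2690 genes were called in place of 937 (1837 higher, 853 lower), with 2 further apolipoproteins, 1 assembly gene, 2 receptor genes, 3 lipase and transfer genes, 28 promoter factors and 4 cluster genes. DESeq2 called 1420 genes (408 lower), 14 promoter factors and 2 cluster genes, and without a filter 366 genes were lower and 2 cluster genes were called. With 1 culture left out, 485 to 998 genes were called, 394 to 778 higher and 91 to 220 lower. Calls then ranged from 0 to 1 for further apolipoproteins, 0 to 1 for receptors, and 4 to 9 for promoter factors. All-gene counts moved by over 1.5 times without vehicle culture 2 or 3 or TGFβ culture 2 (518, 485 and 561), the count of lower genes also without TGFβ culture 1 (144 in place of 230), and promoter factors without vehicle culture 2 or 3 (5 and 4 in place of 8). The cause was not tested. The number term was called for 6 or 7 members under its 4 alternatives, and the per-length order held for all members kept. With 3 cultures a group, changes smaller than the intervals given could not be told from zero, and APOA4, with the fewest reads, is the least certain.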
